A study of Mus musculus with 8 samples.

Results

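A set of 8 genes that carry the circadian clock's signal to other genes was examined in the renal cortex of young and aged mice, and 2 of them changed with age by the criteria used here, as compared to 2.06% of all genes tested. Nfil3 was 8.40-fold higher in aged mice and Dbp was 6.21-fold lower. The 8 genes were taken by symbol from the 22609 genes in the count tables, and each symbol was found once. They are the PAR bZIP transcription factors Dbp, Tef and Hlf, their repressor Nfil3, the repressors Bhlhe40 and Bhlhe41, the ubiquitin protease Usp2 and the nuclear receptor Rora. All of them passed the filter on low counts.

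RNA-Seq was performed on the kidney cortex of 4 aged and 4 young untreated male C57BL6 mice, with 1 library per mouse. The labels give 30 months for the aged and 5 months for the young mice, and the study's methods give a slightly higher mean age for the aged group. Ribosomal RNA was depleted and read pairs were counted by strand on genes. Between 14820804 and 19821429 pairs per library fell on genes, and these counts were scaled to library size as CPM with edgeR's TMM factors. The hour at which the tissue was taken is not given in the sources used here, and its part in any difference was not tested. The tissue is a mixture of cells, so fewer cells of a type and less RNA per cell cannot be told apart.

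In the mouse, CLOCK and its partner ARNTL (BMAL1) bind the E-box, a short DNA element, and drive their own repressors of the PER and CRY families. They also drive Dbp, Tef and Hlf, whose proteins activate genes through the D-box element, and NFIL3 (E4BP4) represses through the same element. RORA activates and the REV-ERB receptors, encoded by Nr1d1 and Nr1d2, repress through the ROR element (RORE), and Arntl and Nfil3 are known targets of that element. In liver and kidney the PAR bZIP factors are known for the daily control of detoxification and heme enzymes, and the transcripts of most of these genes rise and fall over the day.

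These elements were sought in mm9, the genome build on which the reads had been counted, in the 2000 bases before and the 2000 bases after each annotated gene start. Both strands were read, with CACGTG as the E-box, TTATGTAA or TTACGTAA as the D-box, and AANT followed by AGGTCA or GGGTCA as the RORE. The E-box and one form of the D-box share the letters ACGT, and neither contains the other. An E-box was present in 6 of the 8 genes, as compared to 42.3% of 22338 protein-coding genes, and 4 of the 8 held more than 1, as compared to 12.9%. A D-box was present in 2 of the 8 genes (15.8% of all), and the RORE was present in 1 of the 8 (6.16% of all). The matches of the 2 changed genes and some of the other members are shown on the strand of the gene, with the element in capitals and the distance of the element's first base from the start. They are matches of letters only, and binding was not measured.
Dbp RORE, chr7:52960211-52960240, plus strand, 237 bases before the start: cattggcccgAAGTGGGTCAcggtcccgcc
Nfil3 E-box, chr13:53077091-53077120, minus strand, 666 bases before the start: ccgccacctctcCACGTGgtcggggacaca
Nfil3 D-box (read from the other strand), chr13:53076063-53076092, minus strand, intron: cggggcatgcaTTACATAAacttttgctgc
Nfil3 D-box, chr13:53075147-53075176, minus strand, intron: gaaatgtgaggTTATGTAActgccgaattt
Tef D-box, chr15:81631727-81631756, plus strand, 1113 bases before the start: ggcgctgtggaTTATGTAAtatataatatg
Tef D-box, chr15:81633703-81633732, plus strand, intron: atagaagctggTTATGTAAcaggaccacaa
Usp2 E-box, chr9:43874934-43874963, plus strand, 158 bases before the start: gtgctttttctcCACGTGgttctctgtata
Bhlhe40 E-box, chr6:108610354-108610383, plus strand, 257 bases before the start: agcgttgtccaaCACGTGaggctcatgtga
Bhlhe41 E-box, chr6:145814076-145814105, minus strand, 15 bases before the start: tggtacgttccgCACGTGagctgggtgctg
No E-box with these letters lies in the window of Dbp, and none of the elements lies in that of Rora.

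The study compared aged with young renal cortex to find mRNAs that change with age. A gene was called changed where the fold change was above 1.5 and the p of the edgeR quasi-likelihood fit was below 0.05 after adjustment over 13944 genes (Benjamini-Hochberg). Of all genes tested 2.06% were called, 1.17% higher and 0.889% lower in aged mice. Of the 8 clock output genes 2 were called, 1 higher and 1 lower. Between 0 and 4 of them were called when 1 mouse was left out, with 0 without young mouse 1 or 4, 1 without young mouse 3 and 4 without aged mouse 4. The calls over all genes moved with the mice as well, from 287 with all mice to between 8 and 35 without 1 of the young mice, and to 444, 119, 115 and 733 on leaving out aged mice 1 to 4 in turn. Across the 8 genes the median of log2 fold changes was -0.29, as compared to 0.03 over all genes tested. An unadjusted p below 0.05 was found in 4 of the 8 (Dbp, Nfil3, Tef and Usp2) and in 25.5% of all genes.

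**Figure D1:**
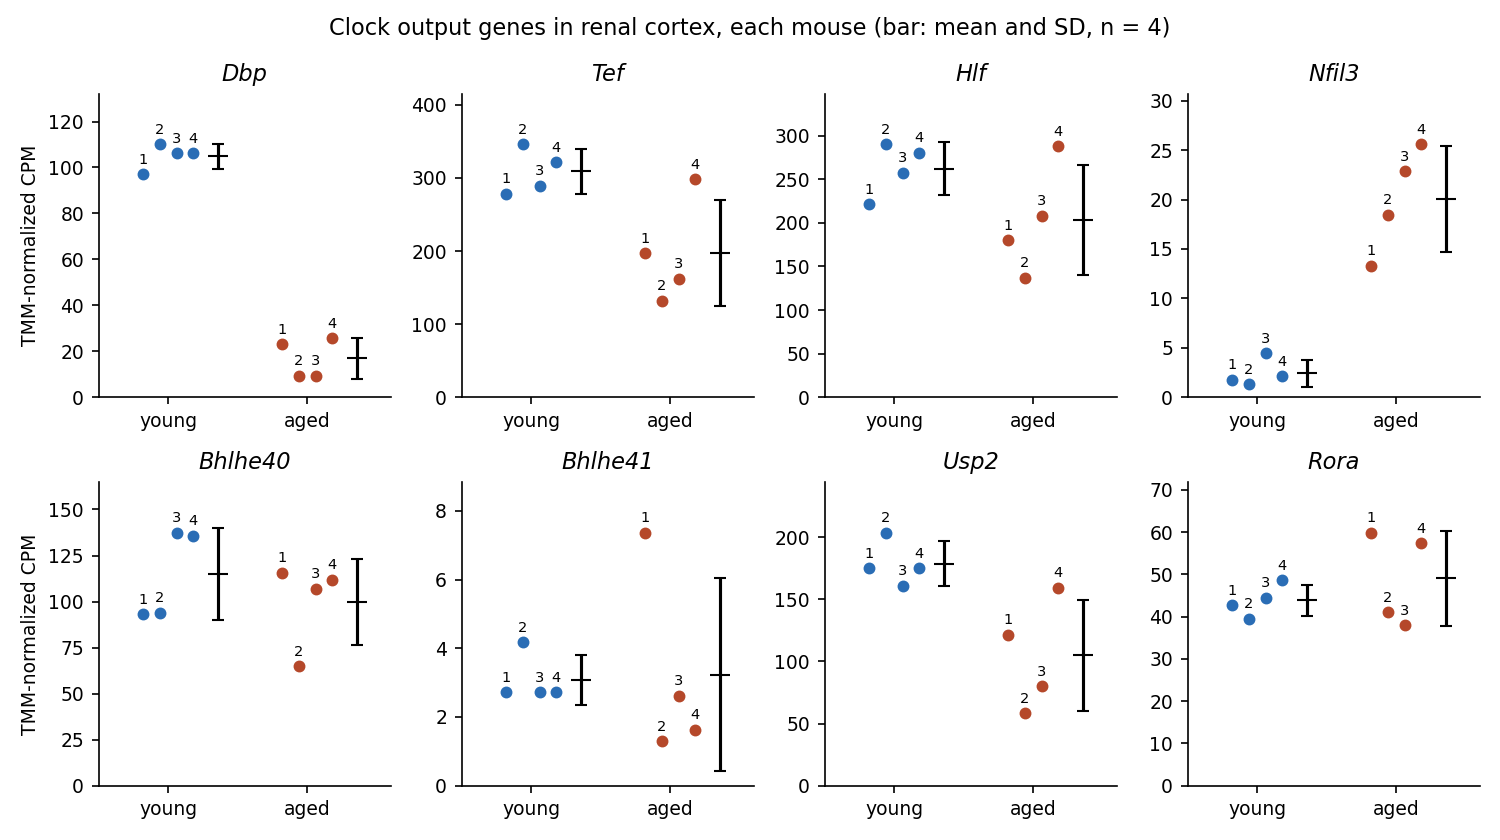
TMM-normalized CPM of the 8 genes (vertical axis, linear and starting at 0) in each young and aged mouse, with mouse numbers above the points and the mean and SD of each group beside them. The aged mice lie between 9.30 and 25.6 CPM for Dbp and the young mice between 97.0 and 110.2 CPM, and for Nfil3 the order is inverted.

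Dbp (D site albumin promoter binding protein) lies on the plus strand of chromosome 7 of mm9 (52960458 to 52965525), with a longest coding transcript of 1789 nt in 4 exons. Dbp stood at 23.1, 9.30, 9.35 and 25.6 CPM in aged mice 1 to 4, while the young mice stood at 97.0, 110.2, 106 and 106 CPM in the same order. Every aged mouse lay below every young mouse, and the young mice were nearly alike while aged mice 1 and 4 lay above aged mice 2 and 3. The group means ± SD (n = 4 each) were 16.8 ± 8.72 CPM for aged and 104.8 ± 5.59 CPM for young mice. Dbp fell by 2.63 on the log2 scale (edgeR standard error 0.33, adjusted p = 0.0141), which is 6.21-fold lower (95% interval 3.68 to 10.5). The counts behind these values were 143 to 471 in aged and 1561 to 2083 in young mice. Without young mouse 1, 3 or 4, the adjusted p of Dbp was 0.0632, 0.0539 and 0.0633 by the same edgeR test, with log2 fold changes between -2.67 and -2.63.

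Tef (thyrotroph embryonic factor), the second PAR bZIP gene, lies on chromosome 15 (81632851 to 81657291, plus strand). Tef stood at 197, 132, 162 and 298 CPM in aged mice 1 to 4, while the young mice stood at 278, 346, 289 and 322 CPM in the same order. Aged mouse 4 lay within the young range and the other aged mice below it, so the groups overlapped in 1 mouse. The log2 fold change was -0.65 (standard error 0.23, 95% interval -1.16 to -0.14, adjusted p = 0.125 by edgeR), which did not pass. Without aged mouse 4 it was -0.92 (edgeR standard error 0.15, adjusted p = 0.0143) and Tef was then called.

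Hlf (hepatic leukemia factor), the third, lies on the minus strand of chromosome 11 (90197849 to 90252231). Hlf stood at 180, 137, 208 and 288 CPM in aged mice 1 to 4, while the young mice stood at 221, 290.4, 257 and 280.3 CPM in the same order. As with Tef, aged mouse 4 lay within the young range and the other aged mice lay below it. For Hlf the log2 fold change was -0.37 (standard error 0.21, 95% interval -0.83 to 0.10, adjusted p = 0.283 by edgeR). The interval holds 0 as well as a decrease past the 1.5-fold limit.

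The PAR bZIP genes were also compared with each other within each mouse, since their proteins share the D-box. The log2 ratio of Dbp to Tef CPM was -3.09, -3.81, -4.10 and -3.54 in aged mice 1 to 4 and between -1.65 and -1.45 in the young mice. The log2 ratio of Dbp to Hlf CPM was between -4.46 and -2.95 in aged and between -1.40 and -1.19 in young mice. In both ratios every aged mouse lay below every young mouse, with a difference of the group means of -2.08 for Tef and -2.38 for Hlf on the log2 scale. These ratios were formed from the same 8 libraries after the genes had been chosen, and no test was made on them. The log2 ratio of Tef to Hlf CPM was -0.36 to 0.13 in aged and 0.17 to 0.33 in young mice.

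Nfil3, the repressor that competes for the D-box, lies on the minus strand of chromosome 13 (53062578 to 53076442), with a single coding transcript of 2026 nt in 2 exons in the annotation. Nfil3 stood at 13.3, 18.5, 22.9 and 25.6 CPM in aged mice 1 to 4, while the young mice stood at 1.79, 1.32, 4.42 and 2.13 CPM in the same order. No aged mouse reached down to the young range, and aged mouse 1, the lowest aged mouse, was well above young mouse 3, the highest of the young. Mean and SD (n = 4 each) were 20.1 ± 5.38 CPM for aged and 2.41 ± 1.38 CPM for young mice. Nfil3 rose by 3.07 on the log2 scale (edgeR standard error 0.37, adjusted p = 0.0125), and the 95% interval of the 8.40-fold increase was 4.74 to 14.9. The young values rest on few counts, 25 to 65 per library, and the aged values on 271 to 470. Without young mouse 1 or 4, the adjusted p of Nfil3 was 0.0632 and 0.0633 by edgeR, with log2 fold changes of 2.95 and 3.02.

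Nfil3 is also known for its role in lymphocytes, so the markers of lymphocytes and plasma cells were examined beside it. The 5 of 7 markers that could be tested summed to between 52.2 and 124 CPM in aged and between 26.4 and 40.1 CPM in young mice, and the groups did not overlap. This separation came with 1 marker, since the other 4 summed to between 16.3 and 42.8 CPM in aged and between 20.4 and 26.5 CPM in young mice, which overlap. Ptprc, a gene of all leukocytes and the largest of these 4, ranged from 14.0 to 39.8 CPM in aged and from 19.4 to 24.3 CPM in young mice. One of the 5 was called, Igj, the joining chain of plasma cells, which stood at 49.4 ± 31.5 CPM (mean ± SD, n = 4) among aged and 7.90 ± 3.82 CPM among young mice. The B cell gene Cd79a stood at 0.645 CPM in aged and 0.429 CPM in young mice, and the B cell gene Ms4a1 had too few counts to be tested. The T cell gene Cd3e stood at 0.937 CPM in aged and 0.659 CPM in young mice, and the T cell gene Cd3g at 1.10 and 0.471 CPM. Of the 5 markers 2 had an unadjusted p below 0.05 by edgeR, Igj and Cd3g. For Cd3g the log2 fold change was 1.19 (edgeR standard error 0.45, adjusted p = 0.148). The part of these cells in the rise of Nfil3 was not tested. Of the 8 proximal tubule markers 0 were called by edgeR, where 2 had an unadjusted p below 0.05, and their sum was 20712 CPM or more in aged mice 2 to 4, 20064 CPM or more in young mice and 10037 CPM in aged mouse 1.

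**Figure D2:**
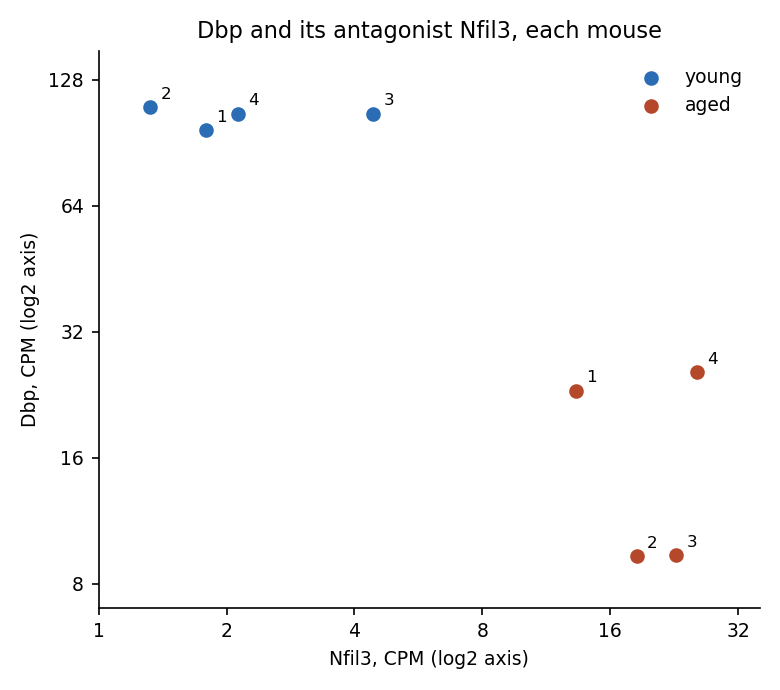
CPM of Dbp (vertical, log2 axis) against CPM of Nfil3 (horizontal, log2 axis) in each mouse, with the mouse number beside each point. The 4 young mice sit at the upper left and the 4 aged mice at the lower right, with 24.0 to 83.3 counts of Dbp for 1 count of Nfil3 in young and 0.409 to 1.74 in aged mice.

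The activator and the repressor of the D-box were set against each other in each mouse. For each count of Nfil3 there were 1.74, 0.504, 0.409 and 0.998 counts of Dbp in aged mice 1 to 4. In young mice 1 to 4 there were 54.2, 83.3, 24.0 and 49.9. Dbp thus had more counts than Nfil3 in aged mouse 1, fewer in aged mice 2 and 3 and nearly as many in aged mouse 4. In every young mouse Dbp had many more. On the log2 CPM scale the ratio averaged -0.37 ± 0.95 among aged and 5.51 ± 0.71 among young mice (SD, n = 4 each), a difference of -5.88. The ratio joins 2 genes already called in opposite directions in the same libraries, and no test was made on it. Per kilobase of the longest coding transcript, Nfil3 stood at 9.90 ± 2.66 and Dbp at 9.41 ± 4.88 CPM per kb (SD, n = 4) in aged mice, where the ranges overlapped. With the union of all annotated exons as the length, the aged means were 9.90 CPM per kb for Nfil3 and 5.72 CPM per kb for Dbp. In young mice Nfil3 stood at 1.19 ± 0.680 and Dbp at 58.6 ± 3.12 CPM per kb (SD, n = 4).

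Bhlhe40 and Bhlhe41 encode the bHLH repressors DEC1 and DEC2, which bind the E-box. Bhlhe40 (chromosome 6, 108610623 to 108616919, plus strand) stood at 116, 64.9, 107 and 112 CPM in aged mice 1 to 4, while the young mice stood at 93.1, 93.9, 137 and 136 CPM in the same order. The groups overlapped, and aged mouse 2 lay apart below all others. For Bhlhe40 the log2 fold change was -0.20 (standard error 0.21, 95% interval -0.67 to 0.26, adjusted p = 0.553 by edgeR), and the interval includes a decrease of 1.59-fold. Bhlhe41 (chromosome 6, 145806763 to 145814078, minus strand) was low in all mice, at 7.37, 1.30, 2.62 and 1.63 CPM in aged mice 1 to 4, while the young mice stood at 2.71, 4.18, 2.72 and 2.72 CPM in the same order. Aged mouse 1 was the highest of the 8 mice and aged mouse 2 the lowest. The log2 fold change of Bhlhe41 was 0.08 (standard error 0.51, 95% interval -1.07 to 1.23, adjusted p = 0.936 by edgeR), and without aged mouse 1 it was -0.73 (edgeR standard error 0.29, adjusted p = 0.155). At 20 to 150 counts per library, a 2-fold difference in Bhlhe41 in either direction lies inside the interval.

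Usp2, a ubiquitin protease with PER1 and CRY1 among its known substrates, lies on chromosome 9 (43875104 to 43903708, plus strand). Usp2 stood at 121, 58.2, 80.3 and 159 CPM in aged mice 1 to 4, while the young mice stood at 175, 204, 161 and 175 CPM in the same order. Every aged mouse lay below every young mouse, though aged mouse 4 nearly reached young mouse 3. Such a separation in either direction was found in 3 of the 8 genes (Dbp, Nfil3 and Usp2) and in 18.9% of all genes tested. For Usp2 the log2 fold change was -0.77 (standard error 0.27, 95% interval -1.38 to -0.16, adjusted p = 0.128 by edgeR), which did not pass. Without aged mouse 4 it was -1.04 (edgeR standard error 0.23, adjusted p = 0.0329) and Usp2 was then called.

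Rora, the activator at the RORE, also lies on chromosome 9 (68501593 to 69236053, plus strand), and 1 other annotated gene, F830001A07Rik, overlaps it on the same strand. Rora stood at 59.9, 41.0, 37.9 and 57.4 CPM in aged mice 1 to 4, while the young mice stood at 42.8, 39.6, 44.5 and 48.6 CPM in the same order. Aged mice 1 and 4 lay above the young range, aged mouse 3 below it and aged mouse 2 within it. In Rora the fitted difference was 0.16 on the log2 scale (standard error 0.16, 95% interval -0.19 to 0.52, adjusted p = 0.529 by edgeR), so an increase above 1.43-fold lies outside the interval. The log2 ratio of Nr1d1 to Rora CPM, repressor to activator at the same element, was 1.22, 0.95, -0.96 and -2.06 in aged mice 1 to 4, and the young mice had 1.02, 1.26, 0.81 and 0.29. Aged mice 1 and 2 lay among the young mice in this ratio, and aged mice 3 and 4 lay below all of them. The group means differed by -1.06, and by -1.54 without aged mouse 1 and -0.45 without aged mouse 4.

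**Figure D3:**
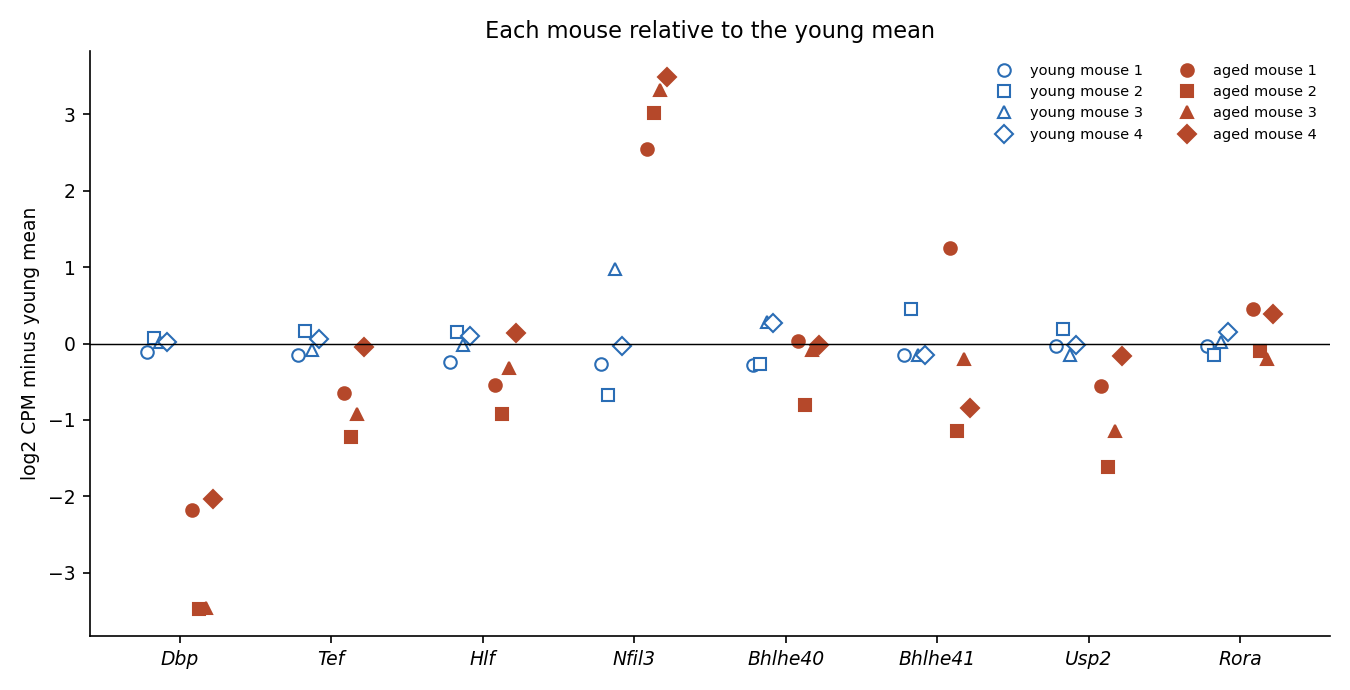
Difference of each mouse from the young mean on the log2 CPM scale (vertical axis) for the 8 genes, with open symbols for young and filled symbols for aged mice and 1 shape per mouse number. Aged mouse 2 (square) is the lowest aged mouse in 6 genes, and aged mouse 4 (diamond) is the highest aged mouse in 5.

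The aged mice differed among themselves more than the young mice did. The SD of log2 CPM was larger in aged than in young mice in 7 of the 8 genes, all but Nfil3, as it was in 83.4% of all genes tested. In Dbp it was 0.79 in aged and 0.08 in young mice, in Tef 0.50 and 0.14, in Hlf 0.45 and 0.17, and in Usp2 0.64 and 0.14. Over all genes tested the median SD was 0.25 in aged and 0.12 in young mice, and the SD lay above the median of its group in each of the 8 genes in aged mice and in 7 of the 8, all but Dbp, in young mice. Aged mouse 2 was the lowest aged mouse in Dbp, Tef, Hlf, Bhlhe40, Bhlhe41 and Usp2. Aged mouse 4 was the highest in Dbp, Tef, Hlf, Nfil3 and Usp2. Aged mouse 1, which lay apart on the first principal component of all genes (-71.5, as compared to -16.3 to 26.2 in the other mice), was the highest in Bhlhe40, Bhlhe41 and Rora and the lowest in Nfil3. In that mouse the 8 glucocorticoid response genes summed to 3132 CPM and the 8 proximal tubule markers to 10037 CPM, as compared to 512 to 901 CPM and 20712 to 23434 CPM in the other aged mice, and the part of either in the levels of that mouse was not tested. Without aged mouse 1 the log2 fold change was -2.82 for Dbp and 3.24 for Nfil3, and both were still called.

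Levels can be compared between the genes only per length, and they are given here as mean CPM per kb of the longest coding transcript in the annotation. In young mice the order was Tef (70.2 ± 7.05), Dbp (58.6 ± 3.12), Usp2 (46.2 ± 4.64), Hlf (45.7 ± 5.34), Bhlhe40 (37.0 ± 7.98), Rora (4.03 ± 0.347), Nfil3 (1.19 ± 0.680) and Bhlhe41 (0.503 ± 0.119), each as mean ± SD of 4 mice. The ranges of Usp2 and Hlf overlapped, as did those of Hlf and Bhlhe40 and those of Nfil3 and Bhlhe41, and those of the other neighbors in this order were apart. In aged mice the order was Tef (44.9 ± 16.4), Hlf (35.4 ± 11.1), Bhlhe40 (32.1 ± 7.56), Usp2 (27.1 ± 11.6), Nfil3 (9.90 ± 2.66), Dbp (9.41 ± 4.88), Rora (4.51 ± 1.03) and Bhlhe41 (0.527 ± 0.459). Each of the first 4 overlapped its neighbor, as did Nfil3 with Dbp and Dbp with Rora at its lower end. Dbp took the second place in young mice and the sixth in aged mice, and Nfil3 moved from the seventh to the fifth place. With the union of all annotated exons as the length, Usp2 took the first and Dbp the fourth place in young mice, so the order among the upper 5 genes depends on the transcript assumed.

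**Figure D4:**
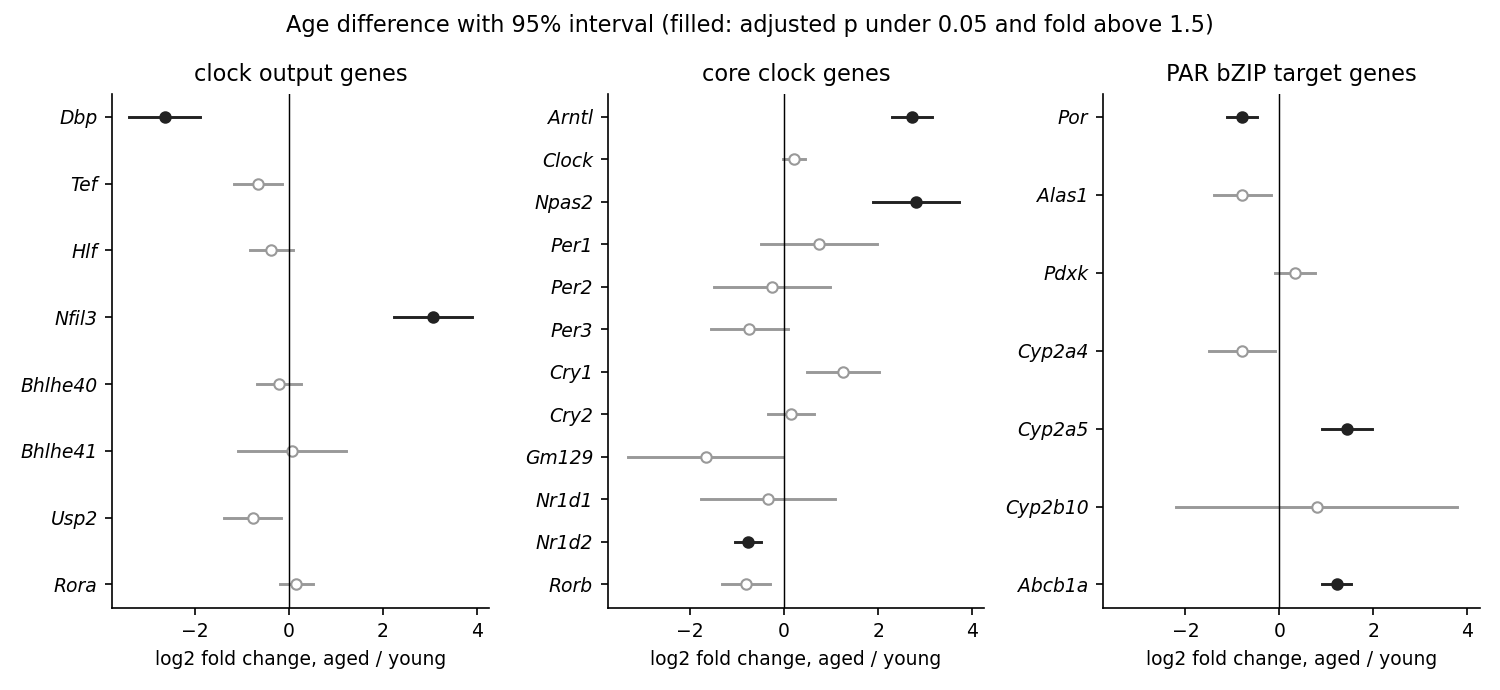
Log2 fold change of aged over young mice (horizontal axis) with its 95% interval from edgeR for the clock output genes, most of the core clock genes and the PAR bZIP target genes that could be tested. Filled points were called, namely Dbp and Nfil3 at the left, Arntl, Npas2 and Nr1d2 in the middle and Por, Cyp2a5 and Abcb1a at the right.

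The core clock genes, which are known to drive several of these output genes, were examined next. Of 13 core clock genes 3 were called, 2 higher and 1 lower in aged mice, and the median log2 fold change of the 13 was 0.15. An unadjusted p below 0.05 by edgeR was found in 7 of the 13, as compared to 25.5% of all genes. Arntl and Npas2, the activators, were higher. Without any 1 of the young mice 1 core clock gene was called, and without aged mouse 2 there were 5. Npas2 stood at 64.1, 51.6, 26.1 and 17.4 CPM in aged mice 1 to 4 and between 4.28 and 6.90 CPM in young mice, with a log2 fold change of 2.80 (edgeR standard error 0.41, adjusted p = 0.0206). Nr1d2, which encodes REV-ERB beta, stood at 130.1, 94.1, 113 and 143 CPM in aged and between 197 and 213 CPM in young mice, with a log2 fold change of -0.77 (edgeR standard error 0.13, adjusted p = 0.0267). Every aged mouse lay outside the young range in these genes. Clock was at 147 CPM in aged and 127 CPM in young mice, with a log2 fold change of 0.20 (edgeR standard error 0.10, adjusted p = 0.247).

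The Per and Cry genes, the repressors of the core loop, did not pass. The log2 fold change was 0.74 (standard error 0.54) for Per1, -0.26 (standard error 0.55) for Per2, -0.74 (standard error 0.36) for Per3 and 1.26 (standard error 0.34) for Cry1. The adjusted p of Cry1 was 0.0731 by edgeR. Per1 stood at 168 CPM in aged mouse 1, 24.6 to 48.1 CPM in the other aged mice and 34.1 to 47.5 CPM in young mice. Per2 stood at 8.46 CPM in aged mouse 2, 47.1 to 88.0 CPM in the other aged mice and 51.2 to 82.1 CPM in young mice. Per3, known as a target of the E-box and the D-box, stood at 35.3, 12.7, 35.8 and 60.6 CPM in aged and between 56.3 and 62.4 CPM in young mice. In Per3, as in Tef and Hlf, aged mouse 4 lay within the young range and aged mouse 2 was the lowest. Nr1d1 stood at 139.6, 79.2, 19.4 and 13.7 CPM in aged and between 59.6 and 95.1 CPM in young mice, with aged mouse 1 above and aged mice 3 and 4 below all young mice. Of the 7 genes for the kinases and ligases of clock protein turnover 0 were called by edgeR, where 2 had an unadjusted p below 0.05, and their log2 fold changes ran from -0.61 to 0.48.

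Of 9 genes known to be controlled by PAR bZIP factors 7 could be tested, and 3 of these were called, 1 lower and 2 higher in aged mice. Their median log2 fold change was 0.33, and 0 or 1 of the 7 was called without any 1 of the young mice. With all mice, 5 of the 7 had an unadjusted p below 0.05 by edgeR, as compared to 25.5% of all genes. Por, the reductase that serves the microsomal cytochromes P450, stood at 249, 223, 221 and 337 CPM in aged mice 1 to 4 and between 433 and 473 CPM in young mice. Aged mouse 4 was again the highest aged mouse, and the log2 fold change of Por was -0.80 (edgeR standard error 0.14, adjusted p = 0.0323). Alas1, the first enzyme of heme synthesis, stood at 177, 78.3, 205 and 177 CPM in aged and between 219.8 and 331 CPM in young mice, all aged mice below all young mice, with a log2 fold change of -0.79 (edgeR standard error 0.27, adjusted p = 0.119). Abcb1a, a drug exporter, stood at 22.4, 23.6, 21.1 and 19.5 CPM in aged and between 7.64 and 11.6 CPM in young mice, with a log2 fold change of 1.22 (edgeR standard error 0.14, adjusted p = 0.0120). Cyp2a5 rose by 1.45 on the log2 scale (edgeR standard error 0.24, adjusted p = 0.0267) and Cyp2a4 had a log2 fold change of -0.79 (edgeR standard error 0.31, adjusted p = 0.156), but these 2 genes are close copies of each other and the split of reads between them is uncertain. The called targets thus did not share 1 direction.

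Further lists were read in the same fit. Of 6 other clock-controlled genes 1 was called, Lonrf3, a ring finger gene, with a log2 fold change of 1.72 (edgeR standard error 0.38, adjusted p = 0.0490). Of 8 clock-controlled renal transport genes 1 was called, Edn1, which encodes endothelin 1, with a log2 fold change of 1.74 (edgeR standard error 0.28, adjusted p = 0.0267). Of the 8 glucocorticoid response genes 1 was called, Zbtb16, with a log2 fold change of 3.00 (edgeR standard error 0.57, adjusted p = 0.0390). Of 5 tested genes of the C/EBP family, the nearest bZIP relatives in binding, 0 were called by edgeR or had an unadjusted p below 0.05. Of 5 tested bHLH relatives of Bhlhe40 and Bhlhe41 1 was called, Hes6, with a log2 fold change of -0.73 (edgeR standard error 0.09, adjusted p = 0.0125). Among these 5 relatives 2 had an unadjusted p below 0.05 by edgeR.

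The genes with the most similar course over the 8 mice were sought for Dbp and Nfil3, by the root mean square difference of log2 CPM after each gene had been centered on its own mean. For Dbp they were Slc16a14 (0.469), Ttr (0.564), Acsm3 (0.594), Sv2c (0.598) and Il34 (0.611), as compared to a median of 1.499 over all genes. This measure includes the difference between the age groups, so the nearest genes share its direction by selection. The log2 fold changes of the 5 nearest to Dbp ran from -3.17 for Sv2c to -1.74 for Il34, and Il34 did not pass (adjusted p = 0.0659 by edgeR). The aged mean of Sv2c, 0.109 CPM, lay below the level of 3 counts, so its fitted value is no bound. For Nfil3 they were Pcdh11x (0.523), Fgb (0.563), Dpp6 (0.567), Naip1 (0.634) and Arntl (0.702), as compared to a median of 1.636. By the same selection these 5 were higher in aged mice, and all of them were called. The young means were 0.187 CPM for Pcdh11x and 0.155 CPM for Dpp6, near the level of 3 counts.

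**Figure D5:**
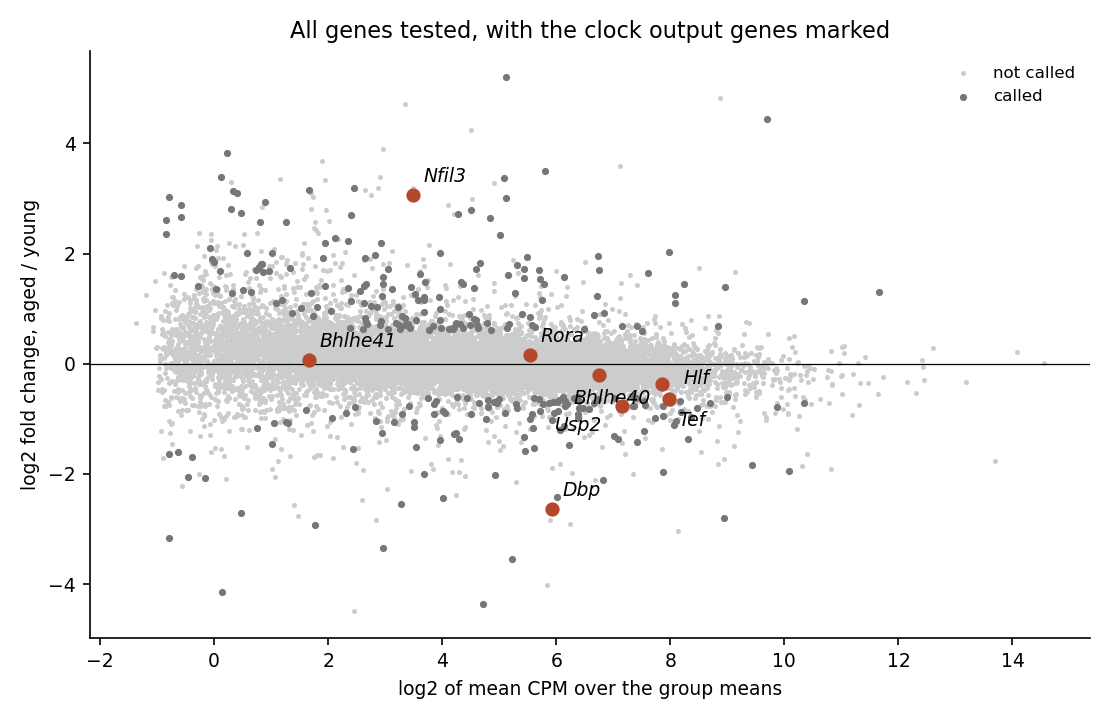
Log2 fold change of aged over young mice (vertical axis) against the log2 of mean CPM (horizontal axis) for the 13944 genes tested, with called genes in dark gray and the 8 clock output genes in red. Nfil3 lies at 3.07 and Dbp at -2.63, while the other 6 lie between -0.77 and 0.16.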

How the data were processed

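A cortex library was sequenced for each of 4 aged and 4 young mice, after depletion of ribosomal RNA. The authors aligned read pairs to mm9 with TopHat2 and used HTSeq-count for strand-aware counts on RefSeq genes, and the deposited values are raw counts per gene, not normalized. CASAVA 1.8.2 is also named in the submitters' processing notes. Versions of TopHat2 and HTSeq are not given in the sources used here. Reads aligned to several places were not counted. Each library's own table was used, and a joint table was not used. Rows that name no gene (19.95% to 29.9% on no feature and 34.3% to 39.1% not unique, of all counts listed) were left out. A read pair aligned to several places may be listed more than once, so these need not be shares of read pairs.

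Counts were tested with edgeR 4.0.16 (R 4.3.3): TMM, filterByExpr (minimum count 10), a quasi-likelihood fit over the 8 libraries without covariates, and Benjamini-Hochberg adjusted p-values. The standard error is the log2 fold change divided by the root of F. Log2 CPM used a prior count of 2. A floor of 3 counts was 0.147 to 0.204 CPM, which covers counting error only. The scripts were tested on simulated counts, which had the same spread in both age groups. At an adjusted p below 0.05 alone, edgeR recovered 19.7% of 1.5-fold and 66.7% of 2-fold changes, and 5.74% of its calls were false. For DESeq2 these shares were 42.4%, 83.3% and 21.2%, and for limma-voom 19.7%, 65.2% and 5.88%. The genes, lists and rule for named genes (all list genes, and the 5 most like Dbp and Nfil3) were chosen with earlier results of these data known. Alternatives were other scalings, DESeq2 1.42.0, limma-voom (limma 3.58.1), a robust fit, other filters, a replicate block, an adjusted p alone and leaving out each mouse. The marker sum without Igj was chosen after seeing the data. No 2 libraries were duplicates (smallest chi-square per gene 9.43). Coordinates, transcripts and sequences came from GENCODE on NCBIM37, which is mm9. With BLAST 2.17.0, 0 copies of the 8 transcripts were found elsewhere in mm9 at 98% identity over 100 nt. Some genes of these lists are not reported here.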

Additional observations from a re-analysis of the deposited data

Results flagged for a closer look

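Among the 16 groups of 4 mice tested with Dixon's criterion (8 genes in 2 age groups, where 0.8 are expected by chance), 2 had a mouse far from the other 3. In Bhlhe41, young mouse 2 was the highest of the young mice, with a gap that took up 0.9946 of the range, at 4.18 CPM as compared to 2.71 to 2.72 CPM. In Bhlhe40, aged mouse 2 was the lowest of the aged mice, with a gap of 0.8291 of the range, just past the limit, at 64.9 CPM as compared to 107 to 116 CPM.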

How the results depend on the processing

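Among the 8 genes, Hlf, Bhlhe40 and Rora kept their direction and their side of the threshold under all 17 alternatives, and so did Dbp and Nfil3 except for mice left out. With DESeq2, 4 of the 8 were called, since Tef (log2 fold change -0.65, adjusted p = 0.0463) and Usp2 (-0.77, adjusted p = 0.0436) then passed. In simulated data 21.2% of the DESeq2 calls were false, as compared to 5.74% of the edgeR calls. Those calls used an adjusted p alone, on counts with the same spread in both age groups. In the data themselves the SD was larger in aged mice in 83.4% of genes. The simulated shares therefore cannot be carried over to the calls of Tef and Usp2. Usp2 was also called by limma-voom (-0.95, adjusted p = 0.0425). The log2 fold change of Bhlhe41 reversed to -0.56 with limma-voom. Core clock genes called were 5 with library size only and 6 with DESeq2. Scaling by library size shifted the median of all log2 fold changes from 0.03 to 0.14. Over all genes 488 were called with library size only (368 higher), 873 with DESeq2 (486 higher) and 483 with limma-voom (238 higher), against 287 (163 higher). The cause of these shifts was not tested.

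With 1 mouse left out, the number called ranged from 0 to 4 for the 8 genes, from 1 to 5 for the core clock, from 0 to 4 for the PAR bZIP targets and from 8 to 733 for all genes. Log2 fold changes ranged from -2.90 to -2.43 for Dbp, 2.86 to 3.52 for Nfil3, -0.92 to -0.50 for Tef, -1.04 to -0.57 for Usp2 and -0.73 to 0.33 for Bhlhe41. The labels link the mice of the 2 groups only by replicate numbers. The deviations of same-numbered mice correlated at 0.206, 0.038, 0.199 and -0.03 for numbers 1 to 4. Aged mice 1, 2 and 3 correlated best with the young mouse of their own number, and aged mouse 4 did not. Such correlations cannot show whether same-numbered mice were handled together, and this was not tested. With a replicate block, 1 PAR bZIP target and 130 genes in all were called, the log2 fold change of Bhlhe41 was -0.20, and the call of no other member changed. The ratios were recomputed only with a prior count of 0.5 and with each mouse left out, and both kept their direction. For Dbp to Nfil3 every aged mouse lay far below every young mouse, so leaving out 1 mouse could not reverse the difference. With 1 mouse left out, the Dbp to Nfil3 difference ranged from -6.27 to -5.58 and the Nr1d1 to Rora difference from -1.54 to -0.45. The SD of the Nr1d1 to Rora ratio among aged mice, 1.57, was larger than its difference with all mice, -1.06. The lowest counts among the 8 genes were those of Bhlhe41 (20 to 150) and of Nfil3 in young mice (25 to 65). The part of depth in their errors was not tested.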
